A study of Mus musculus with 5 samples.

Results

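Polybrominated diphenyl ethers (PBDEs) under estradiol plus progesterone were examined in the number 4 mammary glands of ovariectomized mice by comparing 2 single-cell RNA libraries, OVX_E2_P4_PBDE and OVX_E2_P4, 1 library in each group, out of 5 libraries in the series. Both groups were female BALB/cj mice, ovariectomized and treated from 20 weeks later for 1 week, with an age of 30 weeks in the labels. Both were injected daily with 17β-estradiol at 1 µg and progesterone at 0.1 mg per animal. The food of OVX_E2_P4_PBDE held 7.1 mg of BDE-47, 0.4 mg of BDE-100 and 0.9 mg of BDE-153 in each kg, and OVX_E2_P4 had nutrient-matched food with the DMSO vehicle. The sources used here do not state how many mice stood behind a library. The same contrast without progesterone (OVX_E2_PBDE against OVX_E2, otherwise treated alike) shares no library with it and is given beside it where named.

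Hormone-sensing, alveolar and fibroblast barcodes (a barcode stands for 1 droplet, usually 1 cell) were taken from each library by the UMIs (unique molecular identifiers, each 1 captured transcript) of a few genes per 10000 UMIs. Hormone-sensing barcodes had Prlr and Cited1 together at 10 or more and Csn3 and Spp1 below 5, and alveolar barcodes had the reverse. Fibroblast barcodes had Col1a1, Col1a2, Col3a1 and Dcn together at 50 or more and Epcam and Krt18 below 5. The classes held 3521 of the 5455 barcodes that passed the filters in the 2 libraries, from 14317 in the series. A level is the sum of a gene's UMIs in a class per 1000000 UMIs of that class (CPM), and each ratio is the level with PBDEs over the level without.

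A single library stood for each group, so nothing was tested against the variation between animals. All intervals are 95% intervals and cover counting error only, since barcodes of a library are not replicates. The library numbers place both PBDE libraries of the series in 1 run of consecutive numbers and the 3 other libraries in another, so PBDEs and library order cannot be told apart. The PBDE library was the shallower one: its barcodes had a median of 5348 UMIs against 7861, and the 2 libraries shared 7 barcode sequences.

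PBDEs are flame retardants that persist in fat. They are known to bind nuclear receptors of foreign compounds and to disturb estrogen and thyroid hormone signalling. In the mammary gland, hormone-sensing luminal cells carry the estrogen and progesterone receptors and pass the signal on through secreted factors, alveolar luminal cells form the lineage that makes milk, and fibroblasts lay down the collagen matrix around the ducts.

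The genes outside the rule fitted the class names. Areg, Ly6d, Esr1, Pgr, Foxa1 and Tbx3 summed to 4649 CPM in the hormone-sensing barcodes of OVX_E2_P4, 320.9 in the alveolar and 197 in the fibroblast barcodes. Lalba, Wfdc18, Elf5, Kit, Ltf, Lcn2, Trf and Mfge8 summed to 10657 in the alveolar, 931 in the hormone-sensing and 494 in the fibroblast barcodes. Pdgfra, Lum, Mfap5, Serpinf1, Pcolce and Dpt summed to 7229 in the fibroblast, 237 in the hormone-sensing and 187 in the alveolar barcodes. Endothelial markers were close to absent in every class, at 5.51 to 21.9 CPM in sum over both libraries.

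The alveolar class differed most in size. It held 568 of 3097 barcodes (18.3%, interval 17.0 to 19.7) in OVX_E2_P4 and 116 of 2358 (4.92%, 4.08 to 5.87) in OVX_E2_P4_PBDE, a difference of -13.4 percentage points (-15.1 to -11.8). Without progesterone the alveolar share was 6.24% in OVX_E2 and 5.56% in OVX_E2_PBDE, so the library with both hormones and no PBDEs stood above the 3 others. Hormone-sensing barcodes made up 26.3% (24.7 to 27.9) without and 32.1% (30.3 to 34.1) with PBDEs, and fibroblasts 18.5% (17.2 to 19.9) and 29.3% (27.5 to 31.2). Without progesterone hormone-sensing barcodes went the other way, from 28.4% in OVX_E2 to 20.2% in OVX_E2_PBDE, and fibroblasts made up 36.5% and 52.2%. The hormone-sensing difference of 5.86 points was 2.49 without barcodes over 2 times the median UMIs of their class and library, and the fibroblast difference of 10.8 points was 3.13 under stricter class thresholds. Among barcodes of either luminal kind or with markers of both, the alveolar share was 36.6% (34.2 to 39.1) without and 11.3% (9.40 to 13.4) with PBDEs. Barcodes with markers of both luminal kinds, which can be doublets or cells in free RNA, were 5.49% and 6.62% of the libraries. The limit on Epcam and Krt18 acts on the fibroblast share: at 10 in place of 5 it was 29.4% without and 37.5% with PBDEs. Glands were dissociated without sorting, and a share of barcodes depends on how each cell type survived the preparation, which was not tested.

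**Figure D1:**
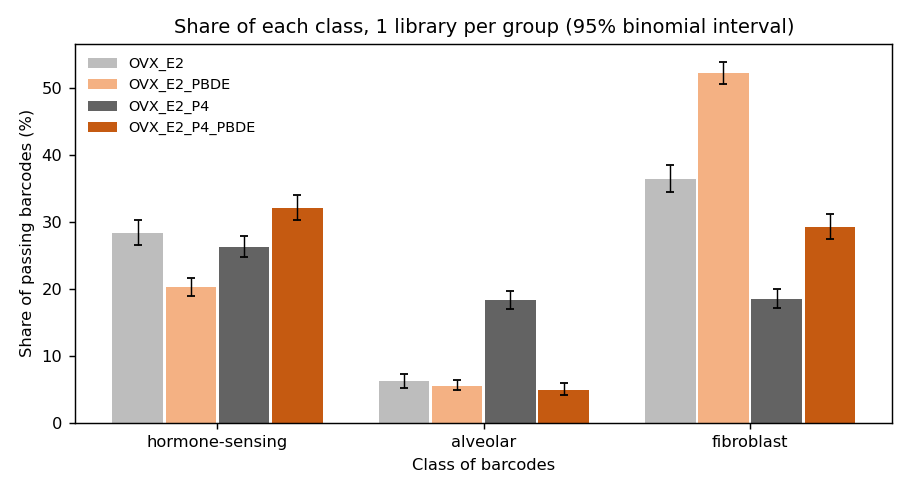
Share of passing barcodes (%) in each class for 4 libraries, with 95% exact binomial intervals that cover counting error only. The alveolar bar of OVX_E2_P4 reaches 18.3%, above 4.92% to 6.24% in the other 3 libraries, and in fibroblasts the PBDE library of each pair is the higher one.

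A gene was measured in a class where its UMIs in the 2 libraries came to 100 or more, and it was called past the fold at a ratio of 1.5 or more, or at its inverse or less. In hormone-sensing barcodes 8045 genes were measured, of which 283 (3.52%) were higher and 451 (5.61%) lower with PBDEs. In alveolar barcodes 273 (4.57%) of 5976 were higher and 536 (8.97%) lower. In fibroblasts 125 (2.31%) of 5410 were higher and 339 (6.27%) lower. Counting noise bore on these counts unequally: the interval left out a ratio of 1 for 124 and 337 of the fibroblast genes past the fold and for 283 and 449 of the hormone-sensing genes, but for only 217 and 327 of the alveolar genes, which rest on 116 barcodes with PBDEs. Dividing by the median ratio turned the split of the hormone-sensing calls to 386 higher and 295 lower, of the alveolar to 357 and 441 and of the fibroblast to 169 and 263. In the pair without progesterone, 1.38% of genes were higher and 5.05% lower in hormone-sensing barcodes, 2.41% and 8.39% in alveolar barcodes, and 0.926% and 5.72% in fibroblasts.

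**Figure D2:**
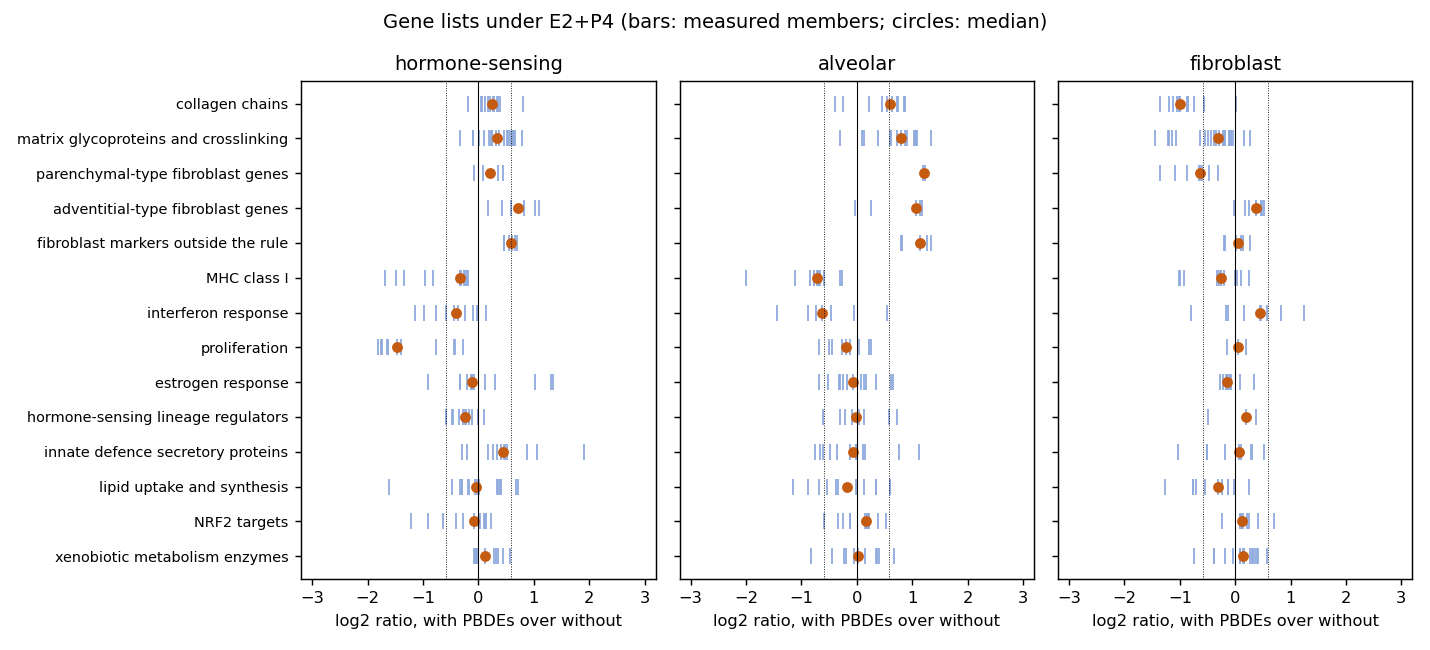
Log2 ratio of each measured member (bars) and the median (circles) of 14 gene lists in the 3 classes of the estradiol plus progesterone pair; dotted lines mark a 1.5-fold ratio. Collagen chains lie left of 0 in fibroblasts (median -0.99) and right of it in alveolar barcodes (0.60), and proliferation genes lie to the left in hormone-sensing barcodes (-1.47).

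In fibroblasts, genes of the extracellular matrix were lower with PBDEs. Of 15 collagen chains outside the rule, 13 were measured and 11 were past the fold lower, against 6.27% of all genes, with a median log2 ratio of -0.99 beside -0.06 over all genes. Col15a1, a collagen of basement membrane zones, was at 286 CPM in OVX_E2_P4 and 111 in OVX_E2_P4_PBDE (ratio 0.39, interval 0.344 to 0.441). Col4a1 and Col4a2, which pair in the network of basement membranes, were at 474 and 229 (ratio 0.484) and at 269.9 and 133 (ratio 0.495). The fibril-regulating chains Col5a1, Col5a2 and Col5a3 had ratios of 0.553, 0.50 and 0.436, and the type VI chains Col6a1, Col6a2 and Col6a3 had 0.549, 0.594 and 0.551. Col14a1, a chain that sits on the surface of fibrils, was the exception at 519 and 525 (ratio 1.01, interval 0.944 to 1.08), and Col16a1 had a ratio of 0.681. The rule itself used fibrillar chains, whose levels are therefore a description: Col1a1 was at 3928 and 1985, Col3a1 at 9415 and 4255, and the proteoglycan Dcn at 8192 and 8462.

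Of 22 measured matrix glycoproteins and crosslinking enzymes, 6 were past the fold lower and none higher (median log2 ratio -0.32). Postn (periostin, a matricellular protein; mm10 chromosome 3, 54361109 to 54391037) was at 2308 CPM without and 843 with PBDEs (ratio 0.365, interval 0.349 to 0.382). Elastin (Eln) was at 384 and 167, the elastic-fiber protein Mfap4 at 293 and 127, and Lox, which crosslinks collagen and elastin, at 179 and 81.0. The proteoglycan Bgn had a ratio of 0.478 and the collagen-binding Sparc one of 0.641. Fibronectin (Fn1) and Fbln1 were at 0.884 and 0.978. Among the genes with the lowest ratios of the class by the naming rule were also Mmp11, a stromal metalloproteinase (78.3 and 21.6), Lrrc15, a membrane protein of matrix-making fibroblasts (46.4 and 12.7), Cthrc1, a secreted protein with a collagen repeat (163 and 65.1), Frem1, a basement membrane protein (33.7 and 8.58), and the IGF-binding protein Igfbp2 (140.1 and 46.4). For Igfbp2 1 barcode of each library held 64 UMIs, and its ratio without these was 0.215 in place of 0.331. Igfbp4 and Igfbp7 were lower too (0.649 and 0.663), and Igf1 was at 0.765.

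In the pair without progesterone these genes lay closer together. None of 13 collagen chains was past the fold there (median log2 ratio -0.15, beside -0.16 over all genes), and 1 of 23 matrix genes was. Postn was at 1343 CPM in OVX_E2 and 1229.7 in OVX_E2_PBDE (ratio 0.916, interval 0.891 to 0.94), Col15a1 at 139 and 129, and Eln at 198 and 214. For these 3 genes OVX_E2_P4 was the highest of the 4 libraries and OVX_E2_P4_PBDE the lowest. Col1a1 and Col3a1, which the rule used, were lower in both pairs (ratios 0.547 and 0.633 without progesterone). The difference between the pairs was not tested.

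The share of fibroblast barcodes with adventitial genes differed between the 2 libraries. Pi16, Dpp4, Anxa3 and Sema3c, genes of the fibroblasts around vessels and fascia (adventitial type), together reached 10 per 10000 UMIs in 331 of 574 barcodes (57.7%, 53.5 to 61.7) without and 552 of 691 (79.9%, 76.7 to 82.8) with PBDEs. In the pair without progesterone the shares were 68.4% and 76.0%. Summed over all fibroblasts, Pi16 was at 2290.1 and 2964, Anxa3 at 554 and 768 and Sema3c at 382 and 534. These genes set the share, so their levels restate it. Ly6c1, which did not set it, was at 1375 and 1970.3. Of 8 measured adventitial-type genes 0 were past the fold, with a median log2 ratio of 0.38. Of 8 measured parenchymal-type genes 6 were lower (median -0.64), among them the retinoid-binding Crabp1 (0.47), Inmt (0.55), Smoc2 (0.638), Gdf10 (0.645) and the chemokine Cxcl12 (0.657). Both counts stand beside 2.31% higher and 6.27% lower among all fibroblast genes. Under stricter class thresholds 3 of 8 parenchymal-type genes were lower, beside 106 of 2232 measured genes. Adventitial-type genes were higher in luminal barcodes too. In hormone-sensing barcodes 4 of 6 measured were past the fold higher (median log2 ratio 0.71), beside 3.52% of all genes. In alveolar barcodes 3 of 5 were (median 1.07), beside 4.57%. The part of free stromal RNA in the share of fibroblasts with adventitial genes was not tested.

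Within each kind of fibroblast the median ratio of the collagen chains was nearer to 1. In barcodes with adventitial genes, 3 of 11 measured collagen chains were past the fold lower, against 3.5% of 4112 genes, with a median log2 ratio of -0.42. In barcodes without them (139 with and 243 without PBDEs), 2 of 13 were, against 4.52% of 2389 genes, with a median of -0.47. Col4a1 was at 125 and 109.6 CPM in the first kind (ratio 0.88, interval 0.738 to 1.05) and at 954 and 691 in the second (0.724, 0.649 to 0.807). Postn remained past the fold in both, at 911 and 496 (0.545, 0.506 to 0.586) with adventitial genes and at 4230.3 and 2182 (0.516, 0.486 to 0.547) without. Eln did too (0.55 and 0.43). Mmp11 had ratios of 0.768 (0.502 to 1.17) with and 0.213 (0.129 to 0.334) without adventitial genes, and Lrrc15 1.01 (0.474 to 2.19) and 0.339 (0.206 to 0.533), so both were past the fold in the second kind and not in the first. This split was chosen after the lower collagen levels had been seen.

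**Figure D3:**
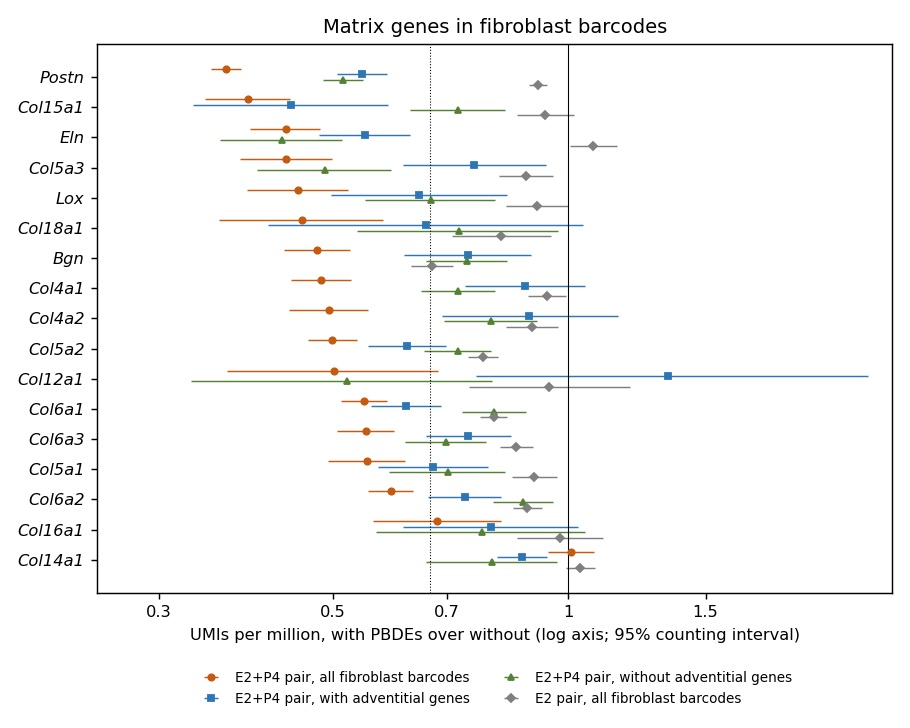
Ratio of CPM with PBDEs over without (log axis, 95% counting intervals) for 17 matrix genes in all fibroblast barcodes, in barcodes with and without adventitial genes, and in the pair without progesterone; the dotted line marks a 1.5-fold lower level. The orange circles lie mostly left of the dotted line, the points of both kinds of fibroblast lie mostly between them and 1, and Postn and Eln stay left of the line in both kinds.

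Other fibroblast genes were higher with PBDEs. The interferon-induced Ifi27l2a was at 1069 CPM without and 2524 with PBDEs (ratio 2.36, interval 2.27 to 2.46), Isg15, a ubiquitin-like protein, at 40.5 and 96.0, and Irf7, the regulator of type I interferon genes, at 16.6 and 29.2. The interferon list, which does not hold Ifi27l2a, had 2 of 9 measured genes past the fold higher and 1 lower (Gbp2). These stand beside 2.31% and 6.27% of all genes, and the median log2 ratio was 0.46. In hormone-sensing and alveolar barcodes the median of the list was -0.41 and -0.64. In fibroblasts without progesterone Ifi27l2a was at 1492 and 2186 and Isg15 at 101 and 71.2, the latter in the other direction. The cytokines Tslp (23.9 and 49.3) and Ccl8 (106 and 191) were higher and Cxcl14 (122 and 64.8) lower. The lipoprotein lipase gene Lpl was at 1262 and 777, and Hmgcs1 and Insig1, which serve cholesterol synthesis and its control, had ratios of 0.415 and 0.593; 4 of 11 measured lipid genes were past the fold lower, against 6.27% of all genes, and none higher. In fibroblasts with adventitial genes 1 of 7 was lower and in those without 3 of 7 were.

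The highest ratio in fibroblasts belonged to Retnla (5.02 and 36.5), a secreted protein known from macrophages and stroma, but 1 barcode held 82 of its 115 UMIs, and its ratio without the top barcode of each library was 2.22. Lyz2 (28.4 and 106), Tyrobp (7.68 and 28.9) and Cd74 (62.1 and 115) mark hematopoietic cells. For Lyz2, 1 barcode held 69 of 96 UMIs without and 1 held 92 of 334 with PBDEs, and without the top barcodes its ratio was 9.64 in place of 3.74. The whole hematopoietic list had 3 of 3 measured genes past the fold higher, against 2.31% of all genes. It summed to 123 CPM without and 289 with PBDEs, and its part in the other results was not tested. The joint lubricant Prg4 (10.6 and 41.3) and the skin gene Krtdap (11.2 and 38.8) were among the highest as well, Krtdap also without progesterone (8.0 and 35.1). Transcripts of the mitochondrial genome, a sign of RNA quality, summed to 22988 without and 13810 with PBDEs in fibroblasts. There 7 of 13 were past the fold lower, against 6.27% of all genes. These transcripts summed to 38695 and 28402 in hormone-sensing and to 31897 and 25510 in alveolar barcodes, and their part in the results was not tested.

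MHC class I genes, which encode the molecules that present peptides on the cell surface, were lower with PBDEs in alveolar barcodes, where 10 of 12 measured genes were past the fold lower against 8.97% of all genes (median log2 ratio -0.71). With a limit of 10 on the markers of the other luminal kind, 6 of 12 were (median -0.60). B2m, the common light chain, was at 1064 CPM without and 654 with PBDEs (ratio 0.614, interval 0.569 to 0.662), and the heavy chains H2-K1 and H2-D1 at 613 and 359 and at 1009 and 613. Psmb8, a subunit of the immunoproteasome, was at 130.4 and 76.3. Of the exceptions, the loading factor Tapbp was at 58.0 and 48.3 and the peptide transporter subunit Tap2 at 22.7 and 18.4. Tap1 rested on 4 UMIs with PBDEs and 102 without. In the interferon list 4 of 7 measured genes were lower in alveolar barcodes (median -0.64), with Ifi27 at 175 and 94.7, while Ifitm3 had a ratio of 0.964. In hormone-sensing barcodes 4 of 10 measured interferon genes were lower and 0 higher (median -0.41), against 5.61% and 3.52% of all genes.

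In hormone-sensing barcodes 5 of 12 class I genes were past the fold lower, against 5.61% of all genes. H2-Q4 was at 364 and 113 (ratio 0.309, interval 0.285 to 0.335), H2-Q6 at 245 and 87.3, H2-Q7 at 154 and 60.9, H2-T23 at 204 and 105 and Tap1 at 27.5 and 15.5. These Q and T genes encode nonclassical chains. H2-K1, H2-D1 and B2m had ratios of 0.803, 0.831 and 0.792 in hormone-sensing barcodes and of 1.0, 1.02 and 1.08 in fibroblasts. The 3 Q genes were lower in fibroblasts too, with H2-Q4 at 222 and 110.3. Without progesterone, H2-Q4 had ratios of 0.677 in hormone-sensing barcodes, 0.532 in alveolar barcodes and 0.569 in fibroblasts, while B2m was at 1.13, 1.22 and 1.01. Class I genes are near copies of each other and reads can be split between them, and BALB/c carries other class I alleles than the C57BL/6J reference, so values of single members are uncertain.

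**Figure D4:**
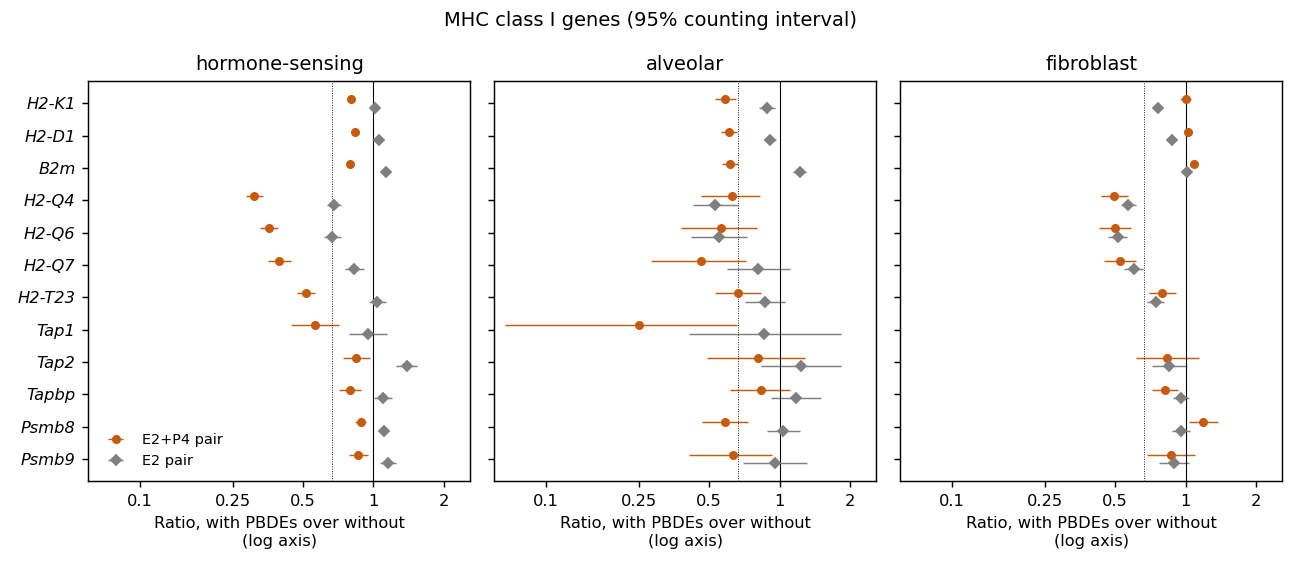
Ratio of CPM with PBDEs over without (log axis, 95% counting intervals) for 12 class I genes in the 3 classes, with the pair without progesterone in grey; Tap1 did not reach 100 UMIs in fibroblasts. In alveolar barcodes nearly all orange points lie left of the dotted 1.5-fold line. H2-K1, H2-D1 and B2m lie between that line and 1 in hormone-sensing barcodes and near 1 in fibroblasts. In both of these classes H2-Q4, H2-Q6 and H2-Q7 lie further to the left.

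The 250 bases before the start of 3 class I genes are shown because H2-K1 was past the fold in alveolar barcodes only, whereas H2-Q4 and H2-Q7 were past it in each of the 3 classes. The sequences are from RefSeq (GRCm38.p6, C57BL/6J), 5′ to 3′ on the gene's strand. Capitals mark GGATTCC, the middle of the NF-κB element of the class I enhancer, and CCAAT, each searched on both strands. Only exact matches are marked. H2-Q4 reads ggatttcc, with a further t, at the place of GGATTCC in H2-Q7, so its lower case does not mean that the element is missing. Positions are chr17:34000348-34000597 on the minus strand for H2-K1 and, on the plus strand, chr17:35379367-35379616 for H2-Q4 and chr17:35438905-35439154 for H2-Q7.
H2-K1: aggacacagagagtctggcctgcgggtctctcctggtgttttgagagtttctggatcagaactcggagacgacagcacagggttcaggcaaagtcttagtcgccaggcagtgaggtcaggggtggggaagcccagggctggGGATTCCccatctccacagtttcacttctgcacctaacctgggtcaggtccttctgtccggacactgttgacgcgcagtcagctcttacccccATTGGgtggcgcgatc
H2-Q4: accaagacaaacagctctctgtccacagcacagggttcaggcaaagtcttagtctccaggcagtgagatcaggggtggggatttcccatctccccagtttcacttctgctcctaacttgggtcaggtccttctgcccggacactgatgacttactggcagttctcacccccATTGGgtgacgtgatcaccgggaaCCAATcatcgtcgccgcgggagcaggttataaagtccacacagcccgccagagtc
H2-Q7: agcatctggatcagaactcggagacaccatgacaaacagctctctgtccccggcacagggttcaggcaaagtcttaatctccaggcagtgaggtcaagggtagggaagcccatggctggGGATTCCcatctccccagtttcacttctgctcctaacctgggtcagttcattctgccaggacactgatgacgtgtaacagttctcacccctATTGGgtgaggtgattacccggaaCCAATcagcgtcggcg
Of the 11 class I list genes with a RefSeq window, 4 held GGATTCC (H2-D1, H2-K1, H2-Q6 and H2-Q7) and 10 held CCAAT, beside 3.17% and 33.8% of 32851 windows of all genes. A list gene was counted if any of its windows held the motif, while the percentages are per window, so they are unlike measures.

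Further genes of alveolar barcodes were lower. Scd1, the desaturase that makes monounsaturated fatty acids, was at 362 CPM without and 163 with PBDEs (ratio 0.451, interval 0.387 to 0.524), and Fabp5, a fatty acid carrier, at 107 and 57.9. Without progesterone Scd1 was at 133 and 166, so OVX_E2_P4 was again the library that stood above the other 3. The antimicrobial secretory proteins Ltf (lactoferrin) and Wfdc18 were at 552 and 326 and at 2285 and 1503, and Kit, a receptor of luminal progenitors, at 57.2 and 29.0. The lists of the lipid and defence genes went both ways. Of 12 measured lipid genes 3 were past the fold lower and 2 higher (median log2 ratio -0.17). Of 12 measured innate defence genes 3 were lower and 2 higher (median -0.07). Among all alveolar genes 8.97% were lower and 4.57% higher. Elf5, the master regulator of the alveolar lineage, was at 124 and 103 (interval of the ratio 0.678 to 1.01), Trf at 2815 and 2587 and the milk gene Lalba at 199 and 254, all within the fold. The lowest genes by the naming rule rested on few UMIs with PBDEs: Il24, a cytokine, on 3 (all in 1 barcode) against 116, Lpcat1, which remodels phospholipids, on 3 against 100, and Rtp4, an interferon-induced gene, on 6 against 176. Csf3 (71.3 and 29.0), Id2 (75.2 and 31.6) and the heat shock gene Hspa1b (94.9 and 42.1) rested on 33, 36 and 48. For Csf3 1 barcode held 16 of the 33, and its ratio without the top barcodes was 0.223 in place of 0.406. That step tends to lower alveolar ratios by itself, since 116 barcodes with PBDEs stood against 568 without.

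Stromal genes were among those that were higher in alveolar barcodes. All 5 measured fibroblast markers were past the fold higher, against 4.57% of all genes, and with the sixth they summed to 187 CPM without and 375 with PBDEs; Pdgfra did not reach 100 UMIs. Of 15 measured matrix genes 11 were higher, and Gpx3, a secreted peroxidase, was at 239 and 656, Clec3b at 54.8 and 135, Ogn at 26.4 and 67.6 and Sfrp4 at 11.2 and 33.3. The same 6 fibroblast markers summed to 237 and 351 in hormone-sensing barcodes, with 3 of 6 past the fold higher, and to 7229 and 7410 in fibroblasts. The library with PBDEs also held the larger share of fibroblasts, and the part of free stromal RNA in these values was not tested. Collagen chains had a median log2 ratio of 0.60 in alveolar barcodes and of -0.99 in fibroblasts.

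In hormone-sensing barcodes 0 of 10 measured steroid and nuclear receptors were past the fold, and Areg and Wnt4, signals that these cells secrete, were within it. Areg (amphiregulin, the EGF receptor ligand through which estrogen drives duct growth) was at 1385 CPM without and 1267 with PBDEs (ratio 0.915, interval 0.889 to 0.941), Wnt4, a progesterone target, at 81.5 and 77.8, and the progesterone receptor Pgr at 127 and 117. The estrogen receptor Esr1 was at 64.5 and 46.0 (ratio 0.714, interval 0.618 to 0.822), and the lineage factors Foxa1 and Gata3 had ratios of 0.995 and 1.08. Of 13 measured estrogen response genes 3 were past the fold higher (Ptges, Wisp2 and Igf1r, at 2.47, 2.04 and 2.53) and 1 lower (Rasd1, 0.529), against 3.52% and 5.61% of all genes, with a median log2 ratio of -0.11 beside -0.09 over all genes. Without barcodes over 2 times the median UMIs only 10 of the 13 were still measured, and none of these was higher. The 3 higher genes each had fewer than 500 UMIs, since none of the 9 genes that reached 500 was higher. The transcription factor Tbx3 (114 and 75.5) and the surface protein Ly6d (2791 and 1861) were just past the fold lower. Prlr and Cited1, which the rule used, had ratios of 1.11 and 0.688. Of 6 measured paracrine signals 1 was higher (Igf1, 6.3 and 13.1) and 1 lower (Nppc), beside 3.52% and 5.61% of all genes. Of 9 measured genes of the EGF family and its receptors 1 was higher (Egfr, 7.23 and 12.8) and 1 lower (Epgn). Fibroblast markers were higher in these barcodes too, with 3 of 6 past the fold. The part of free stromal RNA in the Igf1 value was not tested.

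The lowest ratios of the class belonged to genes found in few barcodes. Nppc (C-type natriuretic peptide; mm10 chromosome 1, 86666291 to 86670571) was at 41.9 CPM without and 2.58 with PBDEs (ratio 0.0617, interval 0.0355 to 0.10), from 359 UMIs in 69 barcodes and 17 UMIs in 8. Cdkn2a, which encodes the p16 and p19 inhibitors of the cell cycle (chromosome 4, 89274471 to 89294653), was at 21.9 and 1.97 (ratio 0.0901, interval 0.0471 to 0.158), from 188 UMIs in 84 barcodes and 13 in 12. Thinned to 3000 UMIs, 5.53% and 0.660% of hormone-sensing barcodes held an Nppc UMI and 3.69% and 0.660% a Cdkn2a UMI, while 1.05% and 0.434% and 1.57% and 1.01% of fibroblasts did (unthinned, 8.48% and 1.06%, 10.3% and 1.58%, 1.92% and 0.579%, and 2.61% and 1.59%). With PBDEs a thinned Cdkn2a UMI was in 5 of 758 hormone-sensing and 7 of 691 fibroblast barcodes, and the 5 barcodes with Nppc stood beside 3 fibroblast barcodes. Whether these UMIs are background RNA was not tested. The medians of the fibroblasts were 5525 and 4269 UMIs. Without progesterone both lay low in OVX_E2 as well, Nppc at 1.6 and 3.9 and Cdkn2a at 3.77 and 10.1.

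Other genes with low ratios were the keratin Krt4 (82.5 and 15.5), the EGF receptor ligand Epgn (epigen; 52.6 and 10.5), Rgcc, a regulator of the cell cycle (66.6 and 14.1), Cdc42ep4, an effector of the GTPase Cdc42 (125 and 31.9), the phosphatase Dusp2 (18.7 and 1.97), Trim15 (12.6 and 1.22) and the kinase Dyrk3 (19.6 and 3.95). Without progesterone Epgn was lower with PBDEs as well (29.4 and 12.7), whereas Rgcc (0.91), Cdc42ep4 (0.865) and Dyrk3 (0.983) were within the fold. Jchain, the joining chain of antibodies and a plasma cell gene, was at 111 and 22.9, but 1 barcode held 870 of its 954 UMIs in OVX_E2_P4, and without the top barcode of each library its ratio was 2.29. In the secretory pathway, the chaperone Hspa5 was at 501 and 252 and Herpud1, of the degradation machinery of the endoplasmic reticulum, at 104 and 38.9. Both are in the list of endoplasmic reticulum stress genes. Of 9 measured genes of that list 2 were lower and 0 higher, against 5.61% and 3.52% of all genes. The metallothionein Mt2 was at 2591 and 1321 under both hormones and at 1267 and 1989.9 under estradiol alone, in opposite directions.

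Genes with high ratios were Tnfaip2, which is induced by tumor necrosis factor (16.7 and 62.1), Angptl4, an inhibitor of lipoprotein lipase (19.7 and 70.3), the transcription factor Barx2 (14.2 and 44.4), Ogfrl1 (7.23 and 22.6), Fam221b (4.78 and 16.0), the secretory protein Wfdc12 (7.35 and 25.5) and the lectin Reg3b (4.78 and 16.3). The UMIs of Wfdc12 came from 9 barcodes without and 19 with PBDEs and those of Reg3b from 14 and 12, of which 1 held 37 of 107 with PBDEs, and under stricter class thresholds the log2 ratio of Reg3b was -0.058. Tnfaip2 was higher with PBDEs without progesterone too (23.8 and 56.4). The hemoglobin gene Hbb-bs (9.8 and 41.2) had 140 of its 271 UMIs in 1 barcode with PBDEs. Of 7 measured alveolar markers 3 were higher in hormone-sensing barcodes, against 3.52% of all genes. Lcn2 was at 185 and 383, the iron carrier Trf at 149.7 and 300.0 and Mfge8 at 156 and 278. The 8 alveolar markers summed to 931 and 1555. Alveolar barcodes were fewer in the library with PBDEs, and the part of free alveolar RNA in these values was not tested.

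**Figure D5:**
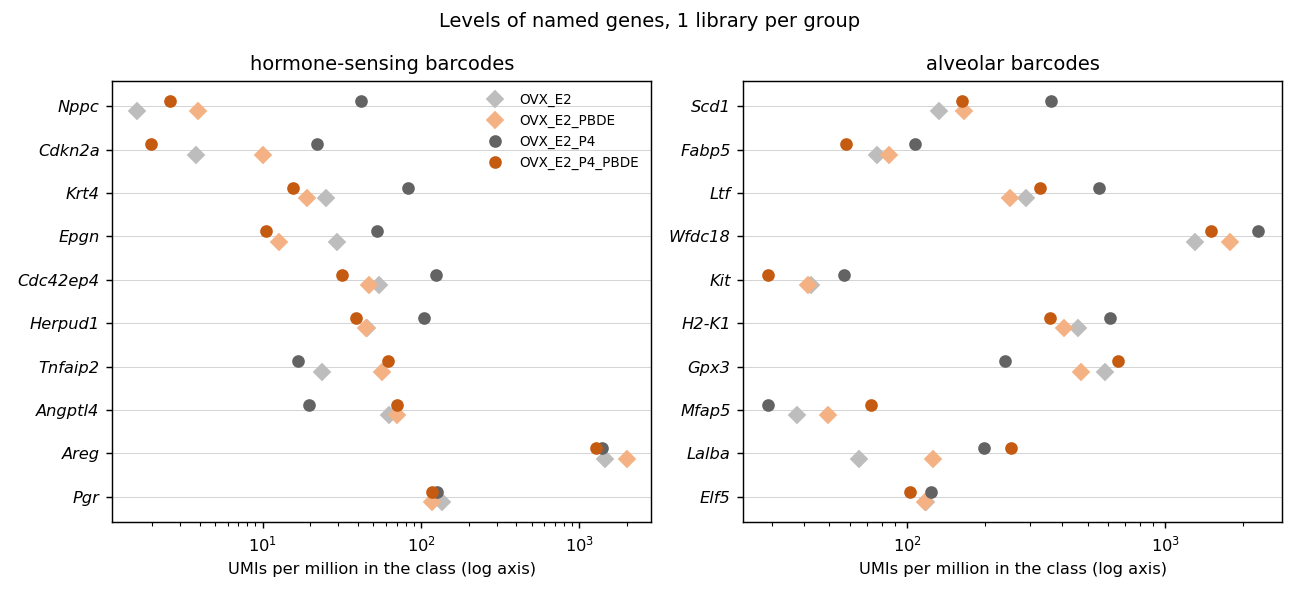
CPM (log axis) of 10 genes in hormone-sensing and 10 in alveolar barcodes, 1 point per library. For Nppc, Cdkn2a, Krt4, Cdc42ep4 and Scd1 the OVX_E2_P4 point lies apart on the high side of the other 3, for Angptl4 and Gpx3 on the low side, and Areg and Pgr lie close together.

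Genes of the cell cycle were lower in hormone-sensing barcodes: 8 of 11 measured were past the fold, against 5.61% of all genes, with a median log2 ratio of -1.47. Rrm2, a subunit of ribonucleotide reductase, was at 19.7 and 5.62, the kinase Cdk1 at 12.8 and 3.8 and the topoisomerase Top2a at 12.8 and 4.86, while Pcna was at 34.4 and 28.3. They came from few barcodes: 59 of 814 (7.25%, 5.56 to 9.25) without and 25 of 758 (3.30%, 2.15 to 4.83) with PBDEs held 2 or more UMIs of 8 cell cycle genes, and at 3000 UMIs each 2.46% (1.51 to 3.77) and 1.06% (0.457 to 2.07) did, intervals that overlap. Without barcodes over 2 times the median UMIs of their class and library, 4 of the genes were still measured, 1 of them was past the fold, and the median log2 ratio was -0.04. In the pair without progesterone 9 of 11 genes were lower (median -1.35), and 2.05% and 0.980% of thinned barcodes held 2 such UMIs. In alveolar barcodes 1 of 9 cell cycle genes was past the fold, and 5.99% and 6.90% of thinned barcodes held 2 such UMIs.

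The measured genes among those known to respond to foreign compounds were mostly within the fold. Many listed genes had too few UMIs to be measured. For the aryl hydrocarbon receptor, 10 targets were listed. Only 2 were measured in hormone-sensing, 3 in alveolar and 3 in fibroblast barcodes. For xenobiotic metabolism, 23 enzymes were listed, and 11, 11 and 16 were measured in these classes. Of the targets of the aryl hydrocarbon receptor, Tiparp was at 30.3 and 36.9 in hormone-sensing barcodes, 41.7 and 42.1 in alveolar barcodes and 122 and 117 in fibroblasts, and Nqo1 was at 25.1 and 36.0 in alveolar barcodes. The exception was Cyp1b1, a steroid- and dioxin-metabolizing cytochrome, at 28.4 and 17.8 in fibroblasts (ratio 0.627, interval 0.443 to 0.881), and at 28.8 and 18.9 without progesterone. Of the enzymes of xenobiotic metabolism, 0 of 11 measured were past the fold in hormone-sensing barcodes, 1 higher (Gstm1) and 1 lower (Gsta4) of 11 in alveolar barcodes and 1 lower of 16 in fibroblasts (Fmo1, at 25.1 and 14.9), shares to be read beside 4.57% higher and 8.97% lower among all alveolar and 6.27% lower among all fibroblast genes. Of 11 targets of NRF2, the sensor of oxidative stress, 3 were lower in hormone-sensing barcodes, against 5.61% of all genes: Gsr (257 and 136), Gclm (199 and 128) and Osgin1 (32.9 and 14.1). In alveolar barcodes 1 of 12 was lower and in fibroblasts 1 of 10 higher (Gclc), and the median log2 ratios of the list were -0.086, 0.16 and 0.13. These were single libraries, so a ratio within the fold does not show that the enzymes did not respond. Whether the targets and enzymes that were not measured responded is not known.

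A few genes were higher in all 3 classes, which share the same 2 libraries and are not independent. Tsix, the antisense transcript of Xist, had ratios of 2.82, 3.05 and 2.7 in hormone-sensing, alveolar and fibroblast barcodes, from 31.7 to 33.4 CPM without and 90.3 to 96.5 with PBDEs, while Xist had 1.12, 1.28 and 1.03. The gene of Tsix (chromosome X, 103431517 to 103484957) spans that of Xist on the other strand, and whether the counting used the strand is not given in the sources used here. Without progesterone its ratios were 0.732, 1.16 and 0.834. Rps27rt, a near copy of a ribosomal protein gene whose reads can be split with its parent, had 2.35, 2.46 and 2.2, and without progesterone 2.33, 2.49 and 2.56. Polr2l, a shared polymerase subunit, had 2.04, 2.11 and 2.01, and Gins1, of the replication complex, 2.08, 2.25 and 1.96. Ifi27l2a was higher in each class (2.0, 2.07 and 2.36). Malat1, a noncoding RNA that stays in the nucleus, was at 18734 and 31013, 10440.0 and 17151, and 21424 and 37737, and beside the lower mitochondrial transcripts it moved with the shallower library; its part in the ratios was not tested.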

How the data were processed

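The number 4 mammary glands were dissociated without sorting and about 4000 cells per library were loaded on the 10x 3′ platform. The authors made the deposited UMI counts per gene and barcode with Cell Ranger 2.0.0 on mm10, per the submitters' processing notes, and the counts hold called cells only, 3107 in OVX_E2_P4 (32648416 UMIs) and 2359 in OVX_E2_P4_PBDE (19982067 UMIs), with at least 3374 UMIs in every barcode of the series.

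Barcodes with at least 500 genes, 1000 UMIs and at most 10% mitochondrial UMIs were kept. No doublet caller was run, and barcodes with markers of both luminal kinds were left out of the classes. UMIs were summed per class and library and scaled to CPM, genes with at least 100 UMIs over the pair were measured, and ratios past 1.5-fold were called. Intervals (95%) are exact for shares (Clopper-Pearson) and for ratios (conditional binomial), and those of differences of shares combine the squared arms of the 2 exact intervals. They cover counting error only. For shares of barcodes with a UMI each barcode was thinned to 3000 UMIs. The scripts were tested on simulated data.

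Named genes were the 10 highest and 10 lowest of each class by the interval bound nearest to 1, the most abundant and the extreme members of each of 42 gene lists, the 5 genes with the largest smallest change over the classes, and class markers. Other genes were taken from these lists. The members and lists were chosen with earlier results of these data known. In all, 9 alternatives were set at the start and 5 were added after seeing the data. Gene positions are from GENCODE M21 (GRCm38), and upstream sequences from RefSeq (GRCm38.p6). Python 3.11.15, numpy 2.4.6, pandas 2.3.3, scipy 1.17.1 and matplotlib 3.10.9 were used.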

Additional observations from a re-analysis of the deposited data

Results flagged for a closer look

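Among the genes taken by rank in a class or in a gene list, the ratio with PBDEs of 9 lay past the fold in opposite directions under estradiol plus progesterone and under estradiol alone, with 1 library in each group. Whether the pairs differ was not tested. The genes were ranked in the pair with progesterone. How many of them were measured in both pairs was not counted, nor was the share of such reversals among all genes. The 9 are therefore a list, and whether they are many or few is not known. In hormone-sensing barcodes Cdkn2a had ratios of 0.0901 and 2.67, Mt2 of 0.51 and 1.57, and Egfr, the receptor of amphiregulin, of 1.76 and 0.645. Cdkn2a rested on 13 UMIs in OVX_E2_P4_PBDE. In alveolar barcodes the heat shock gene Hspa1b had ratios of 0.444 and 2.68, the chemokine Ccl7 of 0.555 and 3.18, the chemokine Cxcl15 of 2.17 and 0.508, and Areg, a marker of hormone-sensing cells, of 1.57 and 0.547. In fibroblasts the alveolar marker Wfdc18 had ratios of 0.487 and 1.94. Hist1h2ap, a histone gene of dividing cells, had ratios of 2.6 and 0.217 in fibroblasts, where 1 barcode held 77.8% of its UMIs in OVX_E2_P4 and 1 barcode 52.3% in OVX_E2_P4_PBDE.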

How the results depend on the processing

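No paired analysis was possible because each group had 1 library. With 1 library per group no replicate could be left out either. With a minimum of 50 UMIs, 518 of 9898 measured hormone-sensing genes were past the fold higher. Of 8228 alveolar genes 550 were higher and 1002 lower, and of 7690 fibroblast genes 255 were higher and 671 lower. With 500 UMIs there were 66 and 119 of 2929, 40 and 61 of 1628, and 26 and 58 of 1525. After dividing by the median ratio 295 hormone-sensing genes were lower, the alveolar class I genes past the fold went from 10 to 9 (8 with classes from 3000 UMIs) and the parenchymal-type genes of fibroblasts from 6 to 4. Under stricter class thresholds the differences in share were -9.48 points for alveolar and 3.13 points for fibroblast barcodes. These thresholds gave 157 of 5225 measured hormone-sensing genes higher, and 66 of 2232 fibroblast genes higher and 106 lower. They turned the log2 ratio of Reg3b in hormone-sensing barcodes to -0.058, the log2 ratio of Jchain in hormone-sensing barcodes to 1.41 and the log2 ratio of Jchain in fibroblast barcodes to 1.82. Without barcodes over 2 times the median the hormone-sensing share differed by 2.49 and the alveolar by -11.5 points.

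Of the alternatives chosen after seeing the data, a limit of 10 on other markers gave a fibroblast difference of 8.18 points and 6 alveolar class I genes. In fibroblasts with adventitial genes 144 genes were lower, and the log2 ratio of Jchain in fibroblast barcodes was 1.12. The log2 ratio of Lrrc15 in fibroblast barcodes was 0.011 there, from 18 UMIs with and 14 without PBDEs. In fibroblasts without adventitial genes 108 genes were lower. Without the top barcode of each gene 174 alveolar genes were higher and 838 lower, and Jchain was at 1.20 in hormone-sensing barcodes and 1.35 in fibroblasts. Taking out 1 barcode tends to remove a larger part of a gene's UMIs from 116 alveolar barcodes with PBDEs than from 568 without. The step by itself therefore tends to lower alveolar ratios, whose median log2 over all genes went from -0.05 to -0.15. Without cycling barcodes 7 of 11 alveolar class I genes were lower, the alveolar share differed by -11.7 points, and Hist1h2ap in fibroblasts was at -0.21. The number of genes measured changed with the 2 UMI minimums, and it was smaller under stricter class thresholds and in each kind of fibroblast. The causes were otherwise not tested. Under the alternatives fixed at the start, 483 ratios of the highest and lowest genes of each class stayed within their counting interval, 53 left it and 3 more changed sign. The 2 UMI minimums cannot change the ratio of a gene, so all ratios under them are among the 483 by construction. Leaving out the barcode filter kept the same 758 and 814 hormone-sensing barcodes, so those ratios could not move either. For lists, 119 medians kept their side of the fold and 7 did not. A median that began within the fold was counted as kept while it stayed there, also where its sign changed. That of the xenobiotic enzymes in alveolar barcodes went from 0.019 to -0.21 with a minimum of 500 UMIs.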
